A study of Rattus norvegicus with 46 samples.

Results

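Abdominal skin of Sprague-Dawley rats was compared on day 3 after a course of radiation, in rats that had received vehicle and no drug. The 5 arrays were chosen by their titles: 3 of irradiated vehicle skin (replicates 1 to 3, from rats 322, 321 and 320) and 2 of unirradiated vehicle skin (replicates 1 and 2, from rats 319 and 318), of 46 arrays from 9 rats in all. Both groups were injected with DMSO on days -7, -5, -3 and 0. The irradiated group received 40 Gy of 6 MeV electrons in 4 fractions of 10 Gy. Per the labels, injections fell on days of radiation or of sham radiation. Biopsies were 5 mm punches of whole skin, and the same rats had been biopsied on earlier days, so each value is a mixture of epidermis, follicles, dermis and what lies beneath. In such bulk tissue, fewer cells of a type and less RNA per cell cannot be told apart. The replicates of a group are different rats. Expression of 23188 non-control features of the Clariom S array was compared, with day 1, day 7 and the 6 baseline arrays of day -10 set beside it.

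Hair is built in the follicle's bulb, where matrix cells divide and then switch on hair keratins and the keratin-associated proteins that cross-link them, while inner root sheath keratins form the mould around the shaft. The matrix of a growing follicle is among the fastest dividing tissues of the body and is known for its sensitivity to radiation. DNA breaks also stabilise the transcription factor p53, whose targets arrest the cell cycle, repair DNA or start cell death, and irradiated skin goes on to inflammation and remodelling of its matrix.

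The deposited values are log2 signals that reach 19.66 to 19.93 per array, and differences are given on that scale, irradiated minus unirradiated, not as folds. On the 5 arrays, 55.0% to 57.8% of features lay above the median of the 1153 negative control features, which was 6.01 to 6.34. The skin label was borne by the markers: the 10 measured genes of interfollicular keratinocytes averaged 15.25, 15.30 and 15.59 in irradiated skin, against 15.12 and 14.47 in unirradiated skin. The irradiated arrays were more alike than the unirradiated ones, with Pearson's r across features of 0.984 to 0.988 for the irradiated pairs and 0.969 for the unirradiated pair. Irradiated arrays correlated with unirradiated 1 at 0.972 to 0.976 and with unirradiated 2 at 0.939 to 0.945. The spike-in controls part the series into 3 sets of arrays, and irradiated 1 belongs to another set than the other 4 arrays.

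On day 3, 302 features differed between irradiated and unirradiated vehicle skin (1.3% of those tested; limma, Benjamini-Hochberg adjusted p under 0.05). Of these, 152 were higher (0.656%) and 150 lower (0.647%) in irradiated skin. The lower side was deeper: the median log2 difference was -3.99 among the lower features and 1.54 among the higher ones, against 0.05 over all features. These medians include signals below background. Of the 302 features, 19 lay at or below the negative control median in all 5 arrays. A further 34 lower features had all irradiated arrays there, and a further 23 higher features all unirradiated arrays. In all 302 the irradiated and unirradiated arrays did not overlap, as in 28% of all features (15.8% with irradiated skin higher, 12.2% lower). An annotated symbol was available for 192 of the 302. The number depended on single rats. It was 32 (24 higher, 8 lower) without unirradiated 2 and 957 (376 higher, 581 lower) without unirradiated 1. It was 185 without irradiated 1, 203 without irradiated 2 and 151 without irradiated 3. In 137 of the 150 lower features unirradiated 2 stood above unirradiated 1, by a median of 2.09. Between the 4 arrays of the same spike-in set, with the spread taken from all 18 arrays of that set, 113 features passed (45 higher, 68 lower). When only the 5 arrays were fitted, 91 passed (25 higher, 66 lower). Of the 61 called genes eligible for naming, 27 lost their call within that set and 34 in the fit of the 5 arrays. Of the 32 called without unirradiated 2, 28 were among the 302. They included Abcb1b, Gria3, Pln, Cd80, Htr4, Ephx1, Ces2c, Gtse1 and Haus3 on the higher side. Lower, the one such feature with a symbol was Alox12e, an epidermal arachidonate lipoxygenase, with means of 3.63 in irradiated skin, below the negative control medians, and 8.37 in unirradiated skin (adjusted p = 0.000364 without unirradiated 2, limma); it was picked out after its values were seen.

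**Figure D1:**
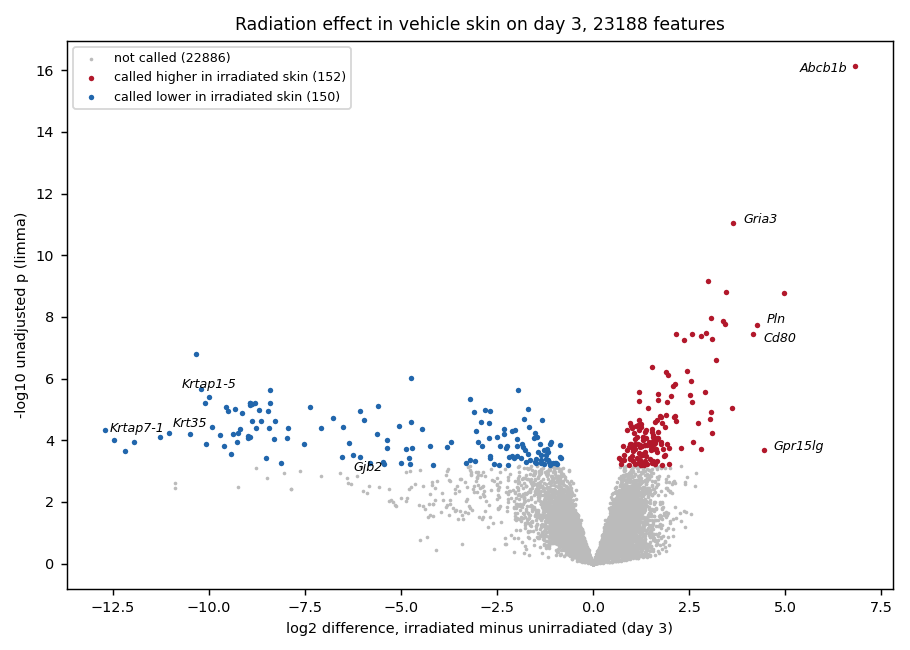
Log2 difference between irradiated and unirradiated vehicle skin on day 3 (x axis) against -log10 of limma's unadjusted p (y axis) for 23188 features, with the 152 called higher in red and the 150 called lower in blue. Abcb1b stands alone at the upper right, and the lower features reach differences beyond -10, among them the hair genes Krtap7-1 and Krt35.

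Among genes with a symbol that passed, those that build the hair fibre had the lowest differences, and 1 feature without a symbol was lower still (-12.72). Of 57 measured features with a symbol beginning in Krt, 17 fell and 0 rose: 11 keratins and 6 keratin-associated proteins. Over all features, 0.647% fell and 0.656% rose. Krtap7-1, a keratin-associated protein, had signals of 5.92, 9.44 and 4.55 in irradiated skin, against 17.45 and 19.74 in unirradiated skin, a difference of -11.96 ± 2.74 (SE; adjusted p = 0.0169, limma). All 3 irradiated arrays were far below both unirradiated ones. Krt35, a hair keratin of matrix and cortex, had 3.67, 5.22 and 3.49 in irradiated skin, against 12.90 and 16.36 in unirradiated skin (difference -10.51 ± 2.31, adjusted p = 0.012). All 3 irradiated arrays were at or below the negative control median, and counted from that median the difference was at least -8.48 in size.

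The other hair keratins ran the same way. Krt85, the keratin partner of Krt35 in the early hair cortex, had 5.39, 7.13 and 5.45 in irradiated skin, against 13.66 and 17.74 in unirradiated skin (difference -9.71 ± 2.14). Krt86 and Krt81, keratins of the cortex, differed by -9.92 and -8.69. Keratins of the inner root sheath fell as well. Krt72 had 3.41, 6.66 and 3.82 in irradiated skin, against 12.14 and 17.27 in unirradiated skin, while Krt28 differed by -8.50 and Krt26, at the negative control level in irradiated skin, by at least -6.69 in size. Irradiated 2 was the highest irradiated array, and unirradiated 2 the higher unirradiated one, for each of these keratins.

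Of 18 measured genes of the hair shaft list, 10 were lower, 0 higher and 8 did not pass, with a median difference of -8.60 (-8.50 with genes at the negative control level counted from it), against 0.05 over all features. Over all features, 0.647% were called lower. In 17 of the 18 irradiated skin was lower with no overlap, against 12.2% of all features. Among those that did not pass was S100a3, a calcium-binding protein of the hair cuticle, at 7.34, 7.54 and 7.40 in irradiated skin, against 13.53 and 17.40 in unirradiated skin (adjusted p = 0.0662, limma). The calls rested on the unirradiated rat with the higher hair signal, the differences less so. In the counts that follow, the inner root sheath keratins Krt72, Krt28 and Krt26 are included with the hair keratins. Without unirradiated 2, 0 of the 13 hair keratin and keratin-associated protein genes among the 20 lowest called genes passed (adjusted p 0.214 to 0.822), while their fitted differences were still -10.81 to -4.78. All 13 passed without unirradiated 1, 9 without irradiated 1, 11 without irradiated 2 and 6 without irradiated 3. The hair shaft list had 0 calls without unirradiated 2, 5 without irradiated 1, 7 without irradiated 2, 3 without irradiated 3 and 14 without unirradiated 1, and its median was -6.75 without unirradiated 2 and -10.51 without unirradiated 1.

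**Figure D2:**
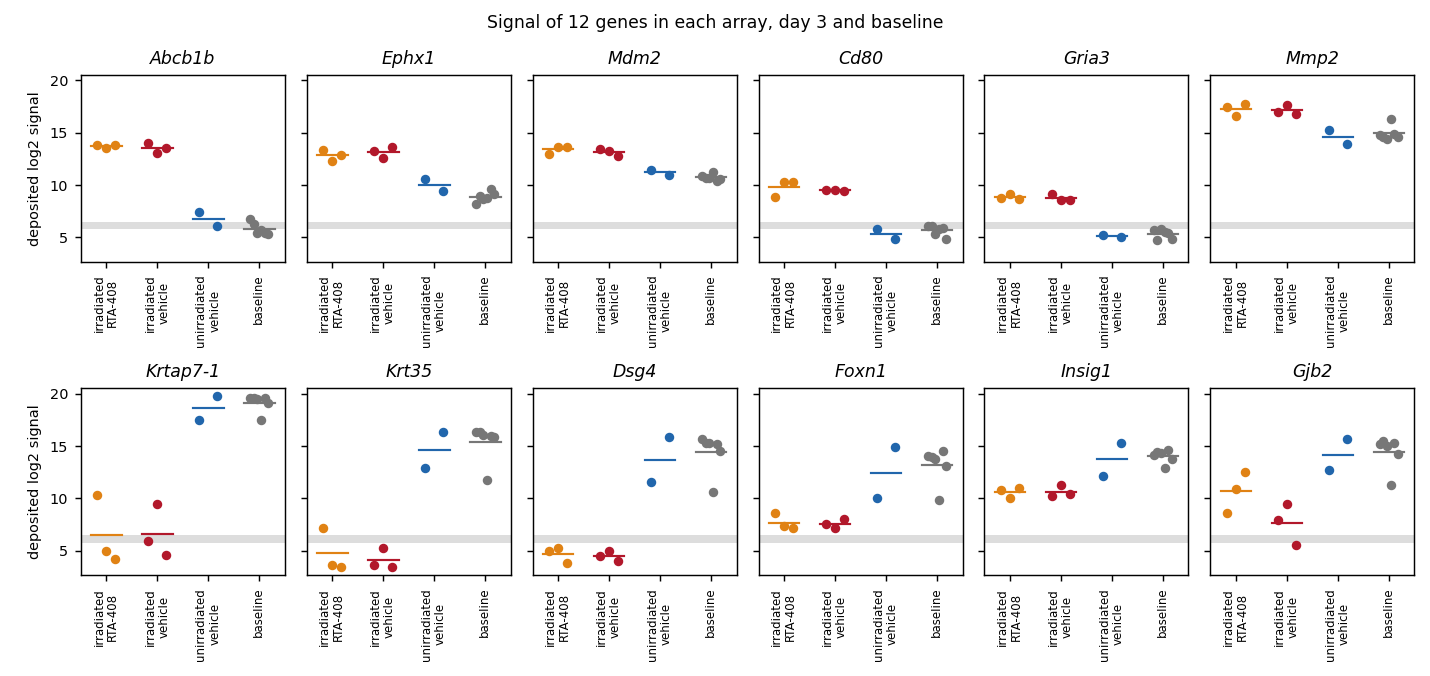
Deposited log2 signal (y axis) of 12 genes in each array of irradiated RTA-408, irradiated vehicle and unirradiated vehicle skin on day 3 and of baseline skin on day -10, with a line at each group's mean and a grey band over the range of the arrays' negative control medians. In the upper row all irradiated vehicle arrays stand above the unirradiated ones, and in the lower row below them, with Krt35 and Dsg4 inside or below the band in irradiated vehicle skin.

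Promoters of these genes are shown because 17 keratin and keratin-associated protein genes fell together. RefSeq promoter windows on GRCr8, 250 bases before to 50 bases after the start, were matched for 15 of the 17. The letters CTTTGAA, the core that LEF1 and related TCF factors are known to bind, were searched for on both strands and occurred in 8 of the 15 windows (53.3%), against 5.4% of all 33469 windows. The 8 were Krt28, Krt36, Krt39, Krt85, Krtap1-5, Krtap14, Krtap15-1 and Krtap7-1. Such a match describes letters, not a bound site, and related neighbouring genes can share sequence. The windows of Krt85 (chr7:134515737-134516036, minus strand), Krtap7-1 (chr11:42227181-42227480, minus strand), Krtap14 (chr11:41613669-41613968, minus strand) and Krtap15-1 (chr11:41616311-41616610, plus strand) follow, 5′ to 3′ along the gene, with CTTTGAA in capitals.
Krt85: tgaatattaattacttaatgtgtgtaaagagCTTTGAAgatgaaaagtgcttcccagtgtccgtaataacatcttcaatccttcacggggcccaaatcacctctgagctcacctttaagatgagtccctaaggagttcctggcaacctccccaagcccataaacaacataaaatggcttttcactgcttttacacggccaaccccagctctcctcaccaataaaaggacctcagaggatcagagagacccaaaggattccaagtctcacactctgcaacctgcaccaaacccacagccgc
Krtap7-1: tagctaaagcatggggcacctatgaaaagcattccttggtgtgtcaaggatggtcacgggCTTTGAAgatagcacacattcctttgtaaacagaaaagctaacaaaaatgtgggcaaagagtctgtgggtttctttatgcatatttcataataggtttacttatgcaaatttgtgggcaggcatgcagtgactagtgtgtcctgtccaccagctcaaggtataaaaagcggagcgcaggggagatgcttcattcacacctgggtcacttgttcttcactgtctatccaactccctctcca
Krtap14: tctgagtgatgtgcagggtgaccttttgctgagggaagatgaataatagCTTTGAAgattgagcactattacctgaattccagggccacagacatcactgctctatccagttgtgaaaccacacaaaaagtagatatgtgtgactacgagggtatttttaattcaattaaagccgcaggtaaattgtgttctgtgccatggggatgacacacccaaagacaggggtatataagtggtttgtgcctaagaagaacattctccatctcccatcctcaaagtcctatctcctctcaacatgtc
Krtap15-1: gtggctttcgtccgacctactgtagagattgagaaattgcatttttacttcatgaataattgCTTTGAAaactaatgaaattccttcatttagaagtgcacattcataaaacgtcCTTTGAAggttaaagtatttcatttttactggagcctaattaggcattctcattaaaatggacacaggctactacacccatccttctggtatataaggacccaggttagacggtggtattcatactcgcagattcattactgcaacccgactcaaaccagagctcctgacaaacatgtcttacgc
Counted from the start of transcription, the matches began at position -219 in Krt85, -190 in Krtap7-1, -201 in Krtap14, and -188 and -135 in Krtap15-1, all in the gene's own direction. In windows not shown, Krt36 and Krtap1-5 had matches in that direction at -246 and -230. The match of Krt28 began at 1, past the start, and that of Krt39 ran in reverse at -100. Windows without a match included those of Krt35, Krt72 and Krt26. Krtap14 had 3.90, 4.95 and 3.71 in irradiated skin, against 9.61 and 17.04 in unirradiated skin, and Krtap15-1 had 5.82, 5.60 and 5.01, against 9.03 and 11.39. Both were at the negative control level in irradiated skin, from which the differences were at least -7.17 and -4.06 in size. Lef1 itself had 5.51, 5.84 and 5.24 in irradiated skin, against 8.19 and 12.40 in unirradiated skin, and did not pass (adjusted p = 0.0596, limma), with irradiated skin at the negative control level and a difference of at least -4.14 in size from it.

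Regulators and adhesion genes of the hair matrix were lower too. Foxn1, the transcription factor whose loss makes nude mice hairless, had 7.56, 7.16 and 8.03 in irradiated skin, against 10.02 and 14.90 in unirradiated skin (difference -4.87 ± 1.16, adjusted p = 0.0216, limma). Dsg4, a desmosomal cadherin of the hair cortex, had 4.51, 4.94 and 4.05, against 11.54 and 15.86 (adjusted p = 0.00979). All irradiated arrays were at or below the negative control median, from which the difference was at least -7.55 in size. The homeodomain factors Dlx3 and Msx2 fell by 5.43 and 4.79. Of 17 measured genes of the hair matrix list, these 4 with Krt35 and Krt85 made up the 6 lower, none was higher, and the median difference was -2.28. Over all features, 0.647% were called lower. The ligand Shh, with 4.14, 4.05 and 3.90 in irradiated skin and 3.22 and 5.04 in unirradiated skin, lay at background in both groups. Further genes among the 20 lowest called were Prr9, a proline-rich protein of cornifying cells (-9.43), Lrrc15, a leucine-rich repeat membrane protein (-8.64), the orphan receptor Gprc5d (at least -5.86 in size) and Mt4, a metallothionein of stratified epithelia (at least -5.42 in size), Gprc5d and Mt4 being at the negative control level in irradiated skin. Gjb2, the gap junction protein connexin 26, had 7.95, 9.45 and 5.53 in irradiated skin, against 12.71 and 15.66 in unirradiated skin (difference -6.54 ± 1.64), and Cpm, a membrane carboxypeptidase, differed by -6.24. Of these 10 genes, 0 passed without unirradiated 2 (fitted differences -7.80 to -2.44, adjusted p 0.494 to 0.923), 3 without irradiated 1, 5 without irradiated 2, 2 without irradiated 3 and all 10 without unirradiated 1. The hair matrix list had 0 calls without unirradiated 2, 3 without irradiated 1, 3 without irradiated 2, 1 without irradiated 3 and 9 without unirradiated 1.

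Over the days of the study, the hair signal also varied in unirradiated skin. The mean of the 18 hair shaft genes on day 3 was 5.89, 7.76 and 5.80 in irradiated vehicle skin, against 12.44 and 16.28 in unirradiated vehicle skin, and irradiated skin given RTA-408 had 8.12, 5.95 and 5.73. Baseline skin ranged over 12.10 to 15.85, so irradiated vehicle skin lay below all baseline arrays, and unirradiated skin had 1 array within and 1 above their range. On day 1 the means were 6.40, 5.97 and 9.76 in irradiated vehicle skin, against 11.15 and 15.12 in unirradiated vehicle skin. On day 7 they were 5.55, 5.68 and 5.51, against 7.44 and 5.77, so unirradiated skin was low too. On day 14 irradiated skin stood at 11.88, 6.07 and 5.38, against 16.01 and 13.01 in unirradiated skin. The unirradiated second replicate is rat 318 on day 3 and rat 317 on day 7.

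**Figure D3:**
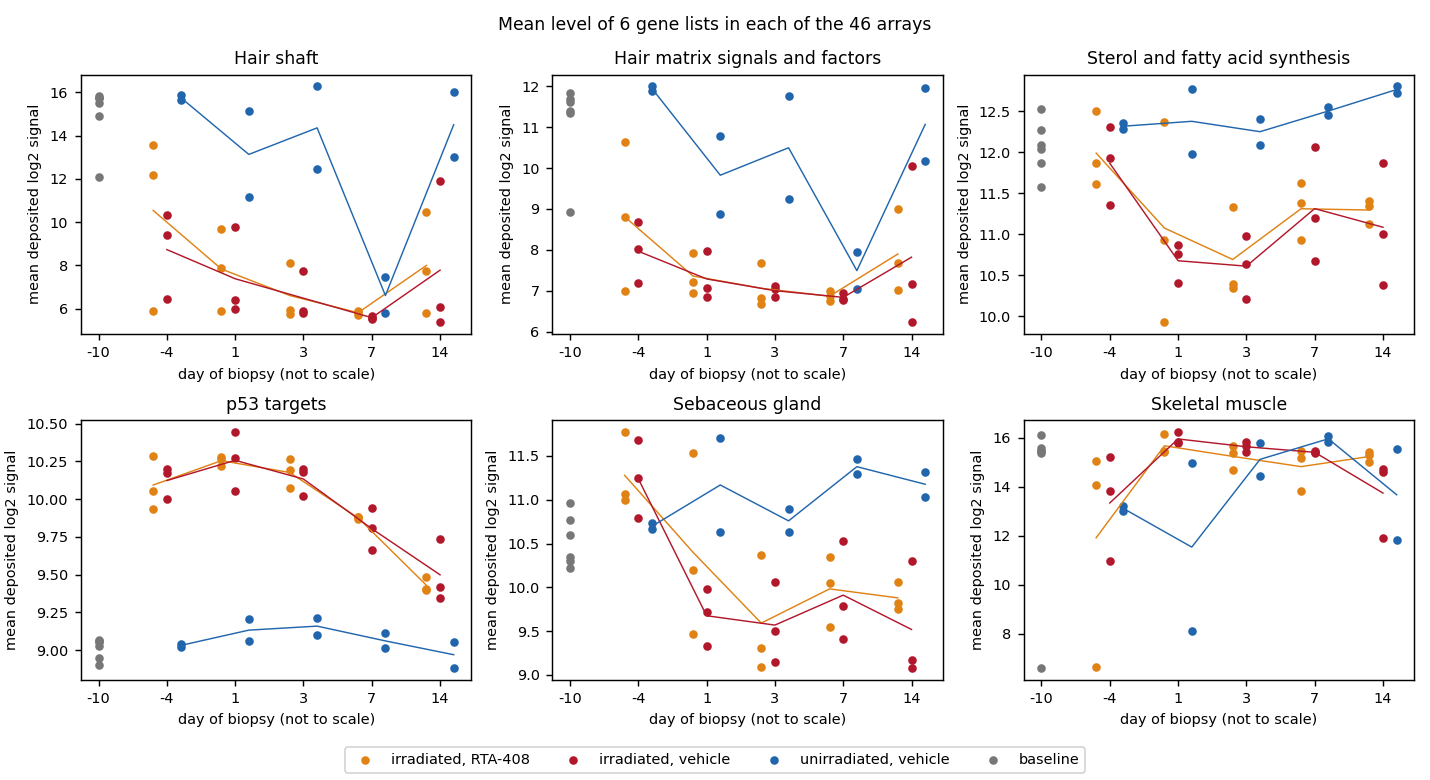
Mean deposited log2 signal of 6 gene lists (y axis) in each of the 46 arrays by day of biopsy (x axis, not to scale), with lines through the group means of irradiated RTA-408 (orange), irradiated vehicle (red) and unirradiated vehicle skin (blue), and baseline in grey. On day 3 the irradiated vehicle arrays lie below the unirradiated ones for both hair lists, the sterol and fatty acid list and the sebaceous list, and above them for p53 targets. The unirradiated hair shaft level is low on day 7.

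Among the 46 lists, chosen with earlier results of these data known, that of p53 targets held the most genes called higher. The highest difference of all features was that of Abcb1b, a drug efflux pump and p53 target of rodents, with 14.03, 13.11 and 13.55 in irradiated skin, against 7.42 and 6.05 in unirradiated skin (difference 6.82 ± 0.44, adjusted p = 1.64e-12, limma). Ephx1, the microsomal epoxide hydrolase, had 13.26, 12.56 and 13.63, against 10.62 and 9.47 (3.11 ± 0.45, adjusted p = 7.74e-05). Mdm2, the ubiquitin ligase that degrades p53, had 13.41, 13.26 and 12.81, against 11.41 and 11.01 (1.95 ± 0.32, adjusted p = 0.000818). For these 3 genes all irradiated arrays exceeded both unirradiated arrays.

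Of 29 measured p53 targets, 7 rose, 0 fell and 22 did not pass, with a median difference of 0.63. Over all features, 0.656% rose and 0.647% fell. In 17 of the 29 irradiated skin was higher with no overlap and in none lower, against 15.8% and 12.2% of all features. The other 4 that rose were Tp53inp1, a nuclear stress protein (1.37), Sesn2, a stress-induced regulator of metabolism (1.33), the nuclease Aen (1.17) and the Akt inhibitor Phlda3 (1.02). Cdkn1a, the cell cycle inhibitor p21, had 14.70, 14.35 and 14.98 in irradiated skin, against 12.85 and 13.96 in unirradiated skin, and did not pass (1.27 ± 0.49, adjusted p = 0.221). It did on day 1 (2.62, adjusted p = 0.0043) and day 7 (2.66, adjusted p = 0.0019), and the difference between days is not thereby shown. The list's mean was 10.20, 10.02 and 10.18 in irradiated vehicle skin, against 9.21 and 9.10 in unirradiated skin and 8.90 to 9.07 at baseline. It was 10.26, 10.07 and 10.19 in irradiated skin given RTA-408. Abcb1b and Ephx1 passed with each array left out. Of the 7, 2 passed without unirradiated 2 (the 5 lost had adjusted p 0.0938 to 0.562), 4 without unirradiated 1 and 5 without each irradiated array in turn.

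Several other genes outside this list rose. Gria3, a subunit of AMPA glutamate receptors, had 9.14, 8.56 and 8.58 in irradiated skin, against 5.22 and 5.00 in unirradiated skin (3.65 ± 0.36, adjusted p = 1.03e-07, limma). The unirradiated arrays were at the negative control level, from which the difference was at least 2.50. Pln, or phospholamban, an inhibitor of the calcium pump SERCA, had 10.50, 10.70 and 10.86, against 7.23 and 5.62 (4.26 ± 0.58). Gtse1, a cell cycle protein that restrains p53, had 8.29, 8.52 and 8.85, against 5.81 and 6.56 (2.37 ± 0.34). Irradiated and unirradiated arrays were well apart for all 3. Htr4, a serotonin receptor, was at least 0.37 higher counted from the negative control level, with 6.43, 6.35 and 7.09, against 3.55 and 2.84. Haus3, a subunit of the augmin complex of the mitotic spindle, had 7.08, 6.94 and 7.10, against 4.97 and 4.78 (2.17 ± 0.31, at least 0.78 from the negative control level). The carboxylesterase Ces2c (2.45) completes the 6 of these 12 genes that passed without unirradiated 2.

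The other 6 were lost when unirradiated 2 was left out. Gpr15lg, a ligand of the chemoattractant receptor GPR15, had 10.17, 8.68 and 10.12 in irradiated skin, against 4.30 and 6.10 in unirradiated skin, with a difference of 4.46 ± 1.07 and at least 3.40 from the negative control level. Gas6, ligand of the TAM receptor kinases, differed by 3.19, the protease inhibitor Serpinb11 by 3.10, and the blood-cell phosphatase Inpp5d by at least 2.11 from the negative control level. Abcb1a, the sister pump of Abcb1b, differed by 2.55 and the ferritin receptor Scara5 by 2.28. These 6 did not pass without unirradiated 2 (adjusted p 0.132 to 0.778). Of the 12 genes, Gpr15lg was lost without unirradiated 1 (adjusted p = 0.134), and 10, 11 and 10 passed without irradiated 1, 2 and 3. Gpr15lg and Serpinb11 were lost without irradiated 1, Scara5 without irradiated 2, and Gpr15lg and Scara5 without irradiated 3.

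Immune and inflammatory lists held few called genes. Cd80, a costimulatory ligand of antigen-presenting cells, had 9.56, 9.57 and 9.39 in irradiated skin, against 5.81 and 4.85 in unirradiated skin (4.17 ± 0.59, at least 3.25 from the negative control level; adjusted p = 6.57e-05, limma). It was the only called member of the 14 measured Langerhans and dendritic cell genes. Ccl20, the chemokine of the receptor CCR6, had 10.89, 12.86 and 10.75, against 7.72 and 8.06 (3.61 ± 0.69) and was the 1 of 26 measured cytokines and chemokines that rose, with 16 of the 26 at the negative control level in all 5 arrays. Ccl21, a chemokine of lymphatic vessels, had 10.57, 10.53 and 10.46, against 8.60 and 6.97 (2.73 ± 0.56). Irradiated arrays lay above unirradiated ones for all 3. The adhesion molecule Icam1 rose by 1.77, the leukotriene enzyme Alox5 by 1.79, and the complement proteases C1r and C1s by 1.87 and 1.86, as 2 of 15 measured complement genes (median 0.88). For these counts of calls, the share of all features called higher was 0.656%. Counts of genes with no overlap were larger: irradiated skin was higher in 8 of the 15 complement genes and lower in 1, and higher in 7 of 13 genes of NF-kB feedback (median 0.58) and 7 of the 26 cytokines and chemokines, with none lower, against 15.8% higher over all features.

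Immune cell lists other than that of Langerhans and dendritic cells gave no calls. Over all features, irradiated skin was higher without overlap in 15.8% and lower in 12.2%. The interferon response counts below lay near these shares. Macrophage and monocyte genes (0 of 23, median 0.32, with 8 higher and none lower without overlap), neutrophil genes (0 of 21, with 12 at the negative control level in all 5 arrays), T and NK cell genes (0 of 24, with 19 at that level) and B and plasma cell genes (0 of 10, with 8 at that level) had no call, nor did the 24 measured interferon response genes (median 0.20, with 4 higher and 2 lower without overlap) and the 15 of the IL-1 and IL-36 family (median 0.66, with 9 higher and none lower without overlap). Il1b and Il6 were at background on all 5 arrays, with 5.34, 5.38 and 5.53 for Il1b in irradiated skin, against 4.98 and 4.54 in unirradiated skin. Among Cd80, Ccl20, Ccl21, Icam1, Alox5, C1r and C1s, all 7 passed without unirradiated 1. Only Cd80 passed without unirradiated 2 (adjusted p 0.0938 to 0.687 for the other 6). C1s was lost without irradiated 1, 3 without irradiated 2 (Icam1, C1r and C1s), and Icam1 and C1r without irradiated 3.

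A few matrix and adhesion genes rose. Mmp2, a gelatinase of the dermis, had 16.95, 17.64 and 16.78 in irradiated skin, against 15.23 and 13.95 in unirradiated skin (2.53 ± 0.46, adjusted p = 0.00244, limma), and was 1 of 21 measured matrix proteases and inhibitors that passed. S100a4, a calcium-binding protein of fibroblasts and immune cells, had 13.81, 14.09 and 13.65, against 12.34 and 10.17 (2.59 ± 0.60). Decorin, the collagen-binding proteoglycan encoded by Dcn, had 19.17, 19.59 and 19.51, against 18.51 and 17.84 (1.25 ± 0.26), near the upper end of the signal scale. Itgb4, the basal keratinocyte integrin of hemidesmosomes, had 14.38, 14.40 and 15.07, against 13.25 and 12.15 (1.92 ± 0.36). Groups did not overlap in these 4 genes. Of 20 measured collagens and matrix genes 1 rose, Dcn, with a list median of 0.83. Among all features, 0.656% were called higher. In 7 of the 20 irradiated skin was higher without overlap and in 1 lower, against 15.8% and 12.2% of all features. Col1a1 did not pass (0.74 ± 0.32, adjusted p = 0.289). Without unirradiated 2 none of the 4 passed (differences 0.91 to 1.89, adjusted p 0.349 to 0.827). All passed with any other array left out, except S100a4 without irradiated 2 (adjusted p = 0.0658).

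Genes of lipid synthesis lay on the lower side. Insig1, which retains the sterol-sensing SREBP complex in the endoplasmic reticulum, had 10.24, 11.32 and 10.41 in irradiated skin, against 12.17 and 15.32 in unirradiated skin (-3.09 ± 0.60, adjusted p = 0.00462, limma). Lss, or lanosterol synthase, had 7.51, 8.21 and 7.34, against 9.59 and 9.76 (-1.99 ± 0.45), and Acaca, the first enzyme of fatty acid synthesis, had 8.67, 9.04 and 9.53, against 10.41 and 10.74 (-1.50 ± 0.38). These were the 3 lower of 19 measured genes of sterol and fatty acid synthesis. The list's median was -1.23, and in 16 of 19 irradiated skin was lower with no overlap. Over all features, 0.647% were called lower, and 12.2% were lower and 15.8% higher with no overlap. The sebaceous gland list had 0 calls among 17 (median -0.70, with 7 lower and 1 higher without overlap). In it, the desaturase Scd had 10.27, 12.46 and 10.64, against 14.17 and 14.58 (-3.25 ± 0.88, adjusted p = 0.0536), and the cholesterol esterifying enzyme Soat1 had -2.98 ± 0.92 (adjusted p = 0.101). The mean of the sterol and fatty acid list was 10.21, 10.98 and 10.64 in irradiated skin, against 12.09 and 12.41 in unirradiated skin and 11.58 to 12.53 at baseline. Calls were 0 of 3 without unirradiated 2 (adjusted p 0.382 to 0.727), with differences of -1.90 to -1.33. Without irradiated 1 Insig1 alone passed, Acaca was lost without irradiated 2 and Lss without irradiated 3, and all 3 passed without unirradiated 1.

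Stress, clock and cycling lists held few called genes. Of 24 measured NRF2 targets 2 rose, Ephx1 and the aldo-keto reductase Akr1b8, which had 9.93, 10.43 and 9.50 in irradiated skin, against 6.80 and 7.00 in unirradiated skin (3.05 ± 0.62, adjusted p = 0.00684, limma). The list's median was -0.02, with 7 higher and 5 lower without overlap, against 15.8% and 12.2% of all features. Nqo1 (1.46, adjusted p = 0.322) and Hmox1 (0.30, adjusted p = 0.89) did not pass. Of 18 unfolded protein response genes, the asparagine synthetase Asns rose (1.28) and the glutathione-degrading enzyme Chac1 fell, with 5.68, 5.65 and 5.30, against 8.57 and 13.22 (at least -4.74 in size from the negative control level). Nfil3, a repressor in the circadian clock, had 6.94, 6.94 and 6.68, against 8.69 and 9.64 (-2.31 ± 0.49), as the 1 lower of 15 clock genes. None of Akr1b8, Asns, Chac1 and Nfil3 passed without unirradiated 2 (adjusted p 0.132 to 0.883), Asns was lost without unirradiated 1 (adjusted p = 0.179), Asns and Chac1 without irradiated 1 and without irradiated 2, and Chac1 without irradiated 3. The 25 measured genes of mitosis and the 25 of DNA replication had 0 calls each, with medians of -0.79 and -0.21. In 11 of the 25 mitosis genes irradiated skin was lower with no overlap and in none higher, against 12.2% lower and 15.8% higher over all features. In DNA replication 4 were lower and 2 higher, near or under those shares. The mean of the mitosis genes was 7.99, 8.11 and 7.86 in irradiated skin, against 8.18 and 9.25 in unirradiated skin. The proliferation marker Mki67 had 10.69, 11.27 and 11.71 in irradiated skin, against 12.14 and 13.30 in unirradiated skin (-1.49 ± 0.82, adjusted p = 0.437).

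Across all 46 lists, 751 genes were measured, of which 19 rose and 19 fell. Over all features, 0.656% rose and 0.647% fell. Lists of tissues that a punch can take along had no call. Skeletal muscle genes (22 measured) averaged 15.65, 15.82 and 15.44 in irradiated skin, against 15.80 and 14.45 in unirradiated skin. Red blood cell genes (8 measured, median 1.26) averaged 10.20, 11.53 and 8.95, against 9.30 and 8.83. Mammary gland genes (14 measured) averaged 5.26, 5.39 and 6.81, against 8.59 and 5.70, with the highest value in unirradiated 1.

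**Figure D4:**
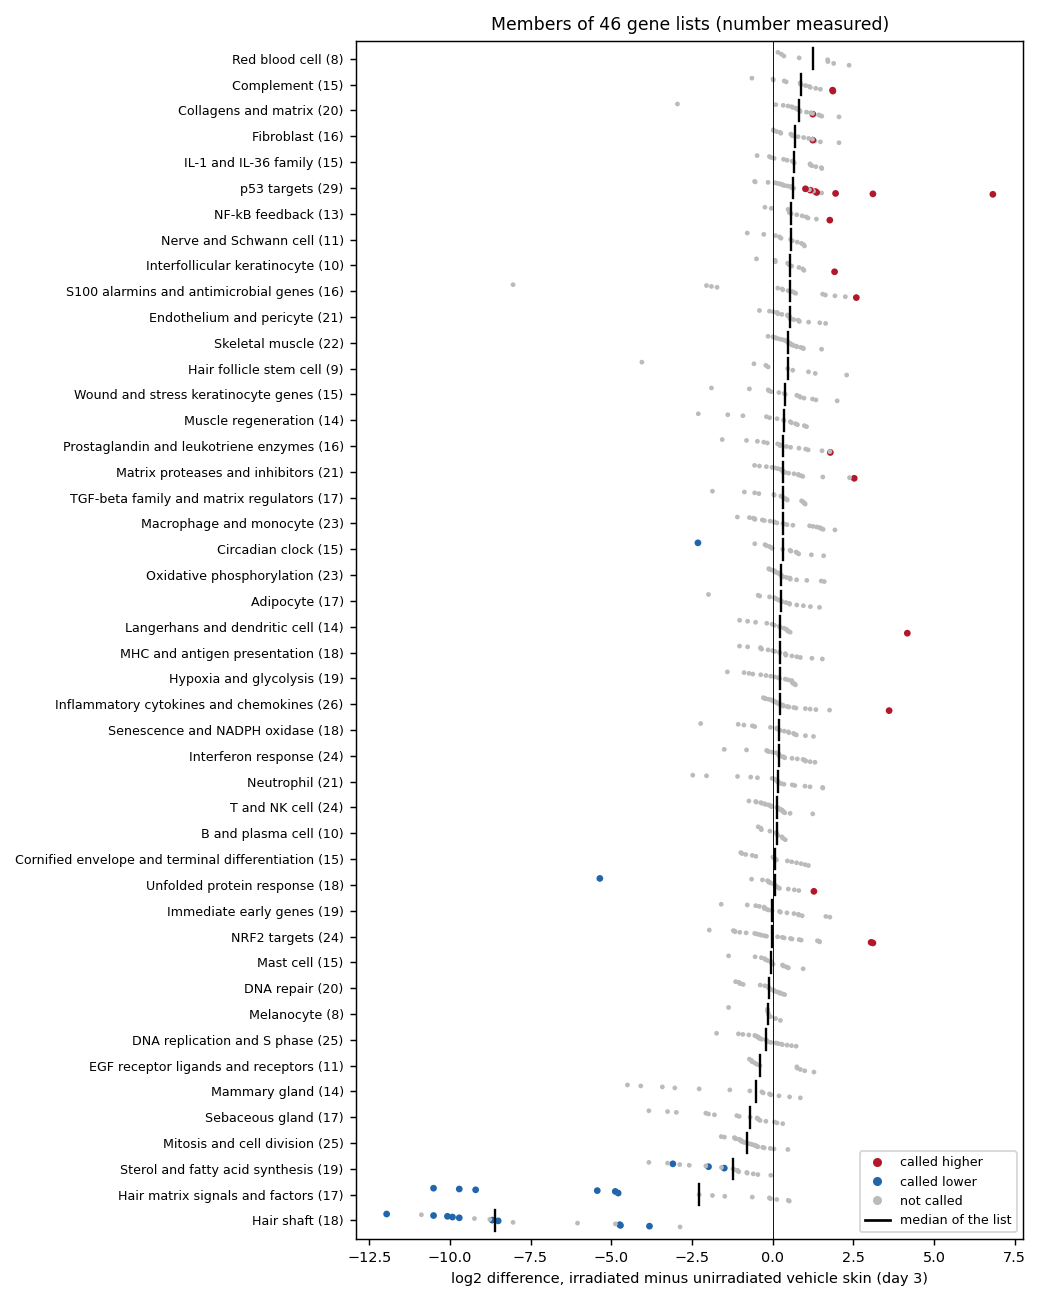
Log2 differences between irradiated and unirradiated vehicle skin on day 3 (x axis) of the measured members of 46 gene lists (rows, ordered by median, number measured in brackets), with called members in red (higher) or blue (lower) and a black bar at each list's median. The hair shaft list lies lowest with a median of -8.60, and the p53 targets hold 7 red points.

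The radiation effect of day 3 was set against that of day 1, the biopsy before it, in the same arms. The difference between both effects passed for 0 of 23188 features (0%; limma, adjusted p), with 1091 at an unadjusted p under 0.05. Without unirradiated 1 of day 3 it passed for 4 features, and without unirradiated 2 for 1. Haus3 had the lowest adjusted p, 0.651, with effects of 2.17 on day 3 and 0.34 on day 1. Cxcl16, a transmembrane chemokine, had effects of 1.41 on day 3 and -0.87 on day 1 (adjusted p = 0.962). Nfkbia, the NF-kB inhibitor, had 1.10 on day 3 and -1.17 on day 1. None of these passed. Skeletal muscle genes on day 1 averaged 15.84, 15.79 and 16.24 in irradiated skin, against 8.11 and 14.96 in unirradiated skin, so 1 unirradiated array of that day stood apart in them, and their part in the result was not tested. Of the features called on day 3, 64 of the 152 higher and 53 of the 150 lower were called in the same direction on day 1, when 279 were higher and 209 lower. The 5 rats are the same on both days, and the description of 1 unirradiated array of day 1 names day 3, where its title, which was followed, names day 1. Abcb1b had effects of 6.82 on day 3 and 6.92 on day 1, Gria3 3.65 and 3.56, Gtse1 2.37 and 2.64, and Krt35 -10.51 and -7.30.

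Against day 7, the biopsy after it, the effect differed for 139 features (0.599%; limma), 47 with the day 3 effect higher (0.203%) and 92 with it lower (0.397%). Gjb2 had the largest negative difference between the days among the named genes, with effects of -6.54 on day 3 and 7.08 on day 7. On day 7 it had 15.17, 15.24 and 15.46 in irradiated skin, against 9.97 and 6.44 in unirradiated skin, so the groups were apart in the opposite direction. Gjb6, its relative connexin 30, had effects of -2.84 on day 3 and 3.79 on day 7, the carbonic anhydrase Car2 -3.23 and 4.98, and the kallikrein Klk13 -1.34 and 5.52. Slc7a11, the cystine transporter, had -1.22 and 4.97, and the ATPase Atp13a4, at the negative control level in irradiated skin of day 3, -2.92 and 4.01. The other way, Wfdc21, of the whey acidic protein family, had 1.90 on day 3 and -6.44 on day 7, where it had 8.11, 5.81 and 7.03 in irradiated skin, against 13.04 and 13.80 in unirradiated skin. The kinase Sbk2 had 0.77 and -5.11. Of these 8 genes, Gjb2 alone passed on day 3, and all 8 did on day 7. Without unirradiated 2 of day 3, the day 3 effects of Slc7a11 and Sbk2 were 0.09 and -0.10, so their sign on day 3 rested on that rat. Among genes called on day 3, Pln had 4.26 on day 3 and 0.30 on day 7, and Haus3 2.17 and -0.22.

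These differences between days 3 and 7 also rested on single rats. The count was 0 without unirradiated 2 of day 3 (limma, with 1950 at an unadjusted p under 0.05), 866 without unirradiated 1 of day 3 and 4 without unirradiated 2 of day 7. It was 39 without irradiated 1 and 40 without irradiated 3 of day 3, 32 without irradiated 3 and 84 without unirradiated 1 of day 7, and 1 within the same spike-in set. Without unirradiated 2 of day 3, the difference for Gjb2 was -12.15 (adjusted p = 0.142). Of the features called on day 3, 40 of the 152 higher and 5 of the 150 lower were called in the same direction on day 7, when 623 were higher and 309 lower. Hair genes were among those with small effects on day 7: Krt35 had -1.60, Krt85 -1.05 and Dsg4 -0.37, with the unirradiated hair shaft level of that day given above.

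**Figure D5:**
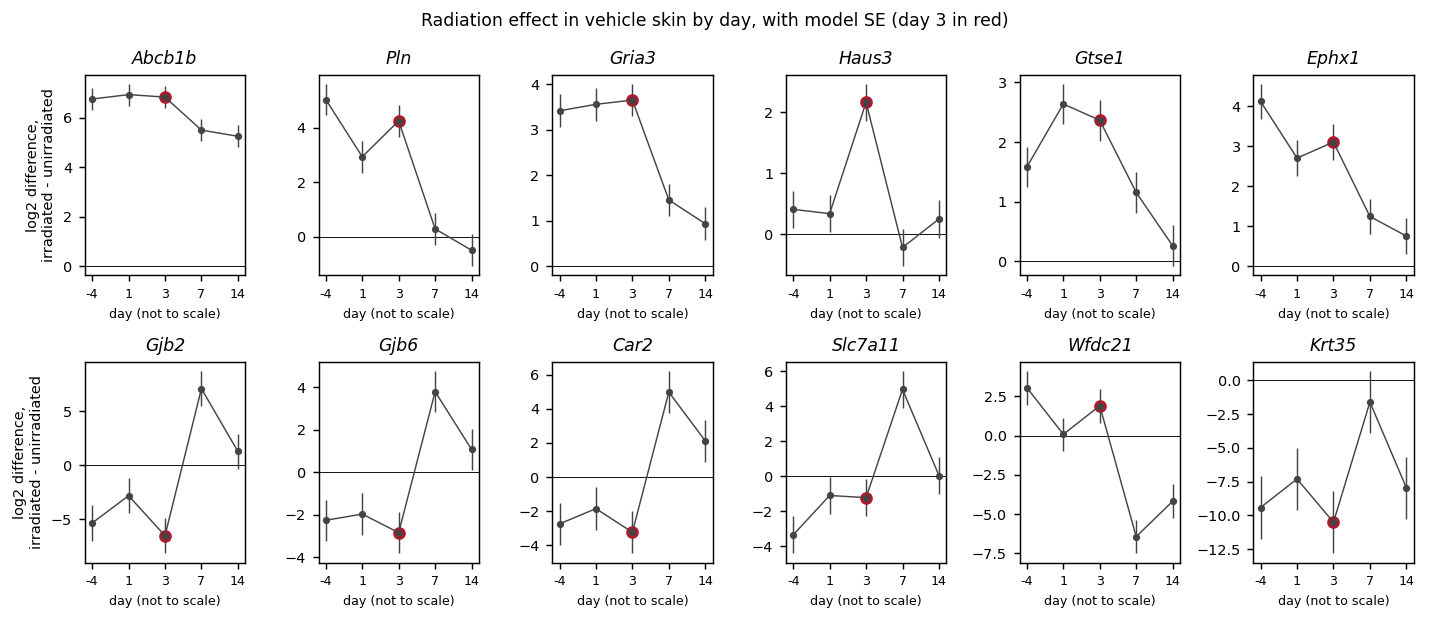
Log2 difference between irradiated and unirradiated vehicle skin (y axis) on days -4, 1, 3, 7 and 14 (x axis, not to scale) for 12 genes, with the SE of the model as bars and day 3 in red. Abcb1b stays between 5.24 and 6.92 on all days, Haus3 has 2.17 on day 3 and -0.22 to 0.41 on the other days, and Gjb2, Gjb6, Car2 and Slc7a11 are below 0 on day 3 and above 0 on day 7.

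The 2 unirradiated arrays of day 3 were also set against the 6 baseline arrays, to see how far vehicle, sham and earlier biopsies had moved the skin they stand for. The comparison gave 0 calls (0%; limma), with 1058 features at an unadjusted p under 0.05, and 2 calls without unirradiated 1 and 1 without unirradiated 2. The smallest p among named genes was that of the clock output factor Dbp, with 13.00 and 11.14 in unirradiated skin of day 3, against 8.27 to 10.69 at baseline (adjusted p = 0.164). Lhx6, a homeodomain factor, had 5.15 and 5.55, against 6.07 to 6.88 (adjusted p = 0.222). Neither overlapped with baseline. All baseline arrays belong to another spike-in set than both unirradiated arrays, so day and set cannot be told apart there.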

How the data were processed

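Per the labels, RNA of rat skin punches was made into biotin-labelled cDNA and hybridized to 1-colour Clariom S arrays. The authors deposited 1 table with a log2 signal per feature and array, already normalized between arrays by a method not given in the sources used here, and the values were used as they stand. The table holds 24834 features, of which the 1646 controls were not tested; of the other 23188, 15049 have 1 gene symbol in the supplied array annotation and 8139 none. Signal over the negative controls and the number of arrays limit the precision.

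A mean per group (16 groups, all 46 arrays, 30 residual degrees of freedom) was fitted in R 4.3.3 by limma 3.58.1 and its empirical Bayes step; p-values were adjusted by Benjamini-Hochberg over all features and called under 0.05. SE is that of this model. Irradiated minus unirradiated vehicle skin on day 3 was tested, as were this effect minus that of day 1 and of day 7, and unirradiated day 3 minus baseline. Where all arrays of a group lay at or below their negative control median, the difference counted from it is given as "at least"; fitted differences of such genes, where printed, run below background. The fit was run on simulated data with planted differences and noise drawn independently for each feature and array. Such data cannot test calls where many genes shift together in a rat.

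The members, the gene lists and the rules were chosen with earlier results of these data known. Eligible by rule were the 20 highest and 20 lowest called differences with a symbol and no overlap, up to 8 called members of each list (with under 2 called, the 2 smallest p), a panel of 12 genes, and of each other comparison the 6 highest and 6 lowest called differences or, with none called, the 2 highest and 2 lowest among the 20 smallest p; text genes were picked from these. Lef1, Shh, Krt36 and Krt39 and the genes said so were named after their values were seen. Lists are described by counts and medians, with no test. For a gene with several features, the one with the highest mean signal was used. Promoters came from RefSeq (GRCr8). Spike-in sets were parted by gaps in 2 control signals. Replicate numbers mark different rats, and the deviations of equally numbered arrays correlated at -0.02 and 0.04 (Pearson's r across features).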

Additional observations from a re-analysis of the deposited data

Results flagged for a closer look

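The radiation effect differed between day 3 and day 7 by the test of that difference for 139 features. The 12 genes given here are the 6 lowest and 6 highest of these differences among genes eligible for naming, so their even split follows from that rule. Haus3 (2.38), Gria3 (2.20) and Sprr1a (-5.80) also passed. Lower on day 3 (day 3 effect minus day 7 effect) were Gjb2 at -13.62, Car2 at -8.21, Atp13a4 at -6.93, Klk13 at -6.86, Gjb6 at -6.64 and Slc7a11 at -6.18. Higher on day 3 were Wfdc21 at 8.34, Sbk2 at 5.88, Adh6a, an alcohol dehydrogenase, at 4.18, Pln at 3.96, the cytochrome Cyp2b1 at 3.27 and Tspyl4 at 2.61. None of the 12 passed without unirradiated 2 of day 3 or within the same spike-in set. The sign was the same in both settings.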

How the results depend on the processing

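The count of 302 features called on day 3 stayed within 1.5 times under quantile normalization (324), without the dimmest features (365 of 17391 tested), with array weights (232), with the rat as a random block (300), with a variance trend (297) and with the spike-in set as a block (379). It was 91 when only the arrays compared were fitted, 113 within the same spike-in set and 32 to 957 with each array left out in turn. The day 3 minus day 7 count of 139 was 1 within the same spike-in set and 0 to 866 with each array left out. The day 3 minus day 1 count of 0 was 0 to 4, and the unirradiated against baseline count of 0 was 0 to 2, with each array left out; the baseline comparison could not be computed within 1 spike-in set. With the replicate number as a block, which does not pair these rats, the counts were 325 on day 3, 192 for day 3 minus day 7, 0 for day 3 minus day 1 and 3 for unirradiated against baseline. Of 61 called named genes, 8 (Abcb1b, Gria3, Cd80, Pln, Htr4, Haus3, Gtse1 and Ephx1) kept their call under all alternatives, and 52 lost it without unirradiated 2. No result named as called changed sign. The causes were not tested. The 2 rats in the unirradiated group limit every call above.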
